A study of Mus musculus with 4 samples.

Results

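Sorted leukocytes of the mouse dura mater were examined for the genes that mark T cells by their receptor. The genes are those of the constant regions of the alpha (*Trac*), beta (*Trbc1*, *Trbc2*), delta (*Trdc*), and gamma (*Tcrg-C1*, *Tcrg-C2*, *Tcrg-C4*) chains, and those of the coreceptors CD4 (*Cd4*) and CD8 (*Cd8a*, *Cd8b1*). These 10 genes of the 55401 in the deposited tables were chosen by name. The tables hold 7 of them under these symbols, and 3 as *Trgc1*, *Trgc2*, and *Trgc4*, which were matched to *Tcrg-C1*, *Tcrg-C2*, and *Tcrg-C4* by Ensembl identifier. All 10 passed edgeR's filter on low counts. Wild-type male C57BL/6J mice had received 2 μl of an AAV9 vector into the cisterna magna at 4 wk of age, and the labels give no time of collection. AAV-mVEGF-C encodes the full-length mouse growth factor, and AAV-CTRL encodes a soluble VEGFR-3 fragment fused to an immunoglobulin tail that cannot bind it, so both groups carried a vector and a secreted product. A library holds the CD45+ cells of 10 to 12 mice, and there were 2 libraries in either group, so the replicate is the pool and the mice within it are not separated. T cells were not sorted from other leukocytes. In such bulk RNA, fewer T cells and less RNA per T cell cannot be told apart.

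Reads assigned to genes numbered 32520709 to 46409700 per library. In AAV-CTRL 1, the deepest library, 20993 genes had reads, against 29230 to 37535 elsewhere. Some of the values below are also given without it. Levels are compared between genes as TPM, a relative share of transcripts that is corrected for gene length and has the same total in every library. Libraries are compared for a given gene as TPM or as scaled CPM, which is a share of reads after edgeR's TMM scaling and keeps gene length in it.

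Each T cell carries either an alpha-beta or a gamma-delta receptor, and the variable part of each chain is assembled by recombination, whereas the constant part is shared by all cells that use the gene. The alpha-beta receptor reads peptides held by MHC molecules. CD4 binds MHC class II and marks helper and regulatory T cells, and CD8, a dimer of alpha and beta chains in most killer T cells, binds MHC class I. Gamma-delta T cells recognize other ligands, settle in barrier tissues early in life, and in the meninges include many cells that make IL-17. Outside T cells, *Cd8a* is also expressed by a type of dendritic cell, *Cd4* by plasmacytoid and other dendritic cells and some macrophages, and *Trdc* and the gamma constant genes can be transcribed in NK cells and other innate lymphocytes. None of these genes is therefore a strict count of cells.

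The constant genes of the beta chain are near copies of each other, which decides how far *Trbc1* and *Trbc2* can be told apart. Their first exons, 375 bases each, differ at 1 position, C260A, counted from the first base of the exon with the base of *Trbc1* first. The stretch around it is shown from GENCODE M21 transcripts on GRCm38, on the plus strand, at chr6:41538438-41538517 and chr6:41546950-41547029, with the differing base in capitals.
Trbc1: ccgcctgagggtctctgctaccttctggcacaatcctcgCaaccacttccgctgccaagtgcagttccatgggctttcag
Trbc2: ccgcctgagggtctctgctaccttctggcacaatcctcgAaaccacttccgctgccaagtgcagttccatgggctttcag
The third exons, which encode the membrane-spanning part, differ at 15 of 107 bases and are shown at chr6:41539229-41539335 and chr6:41547772-41547878, again with differing bases in capitals.
Trbc1: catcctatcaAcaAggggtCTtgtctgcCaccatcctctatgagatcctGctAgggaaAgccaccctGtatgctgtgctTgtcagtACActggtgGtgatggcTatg
Trbc2: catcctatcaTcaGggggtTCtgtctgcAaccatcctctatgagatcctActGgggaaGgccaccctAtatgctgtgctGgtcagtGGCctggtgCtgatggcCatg
Reads from the first exon that miss position 260 fit both genes, and the estimated reads of *Trbc1* and *Trbc2* had decimals in all 4 libraries, whereas their sum was a whole number in each.

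The gamma constant genes are less alike. In their first exon of 330 bases, *Tcrg-C1* and *Tcrg-C2* shared 321 bases, *Tcrg-C1* and *Tcrg-C4* 271, and *Tcrg-C2* and *Tcrg-C4* 269. A stretch of 120 bases is shown, 5′ to 3′ on each gene's own strand, at chr13:19214213-19214332 for *Tcrg-C1* (plus), chr13:19307322-19307441 for *Tcrg-C2* (minus), and chr13:19344668-19344787 for *Tcrg-C4* (plus). Capitals mark the 25 positions at which the 3 genes are not all the same.
Tcrg-C1: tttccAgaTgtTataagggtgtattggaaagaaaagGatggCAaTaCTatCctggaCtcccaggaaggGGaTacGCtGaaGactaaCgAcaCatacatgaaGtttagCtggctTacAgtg
Tcrg-C2: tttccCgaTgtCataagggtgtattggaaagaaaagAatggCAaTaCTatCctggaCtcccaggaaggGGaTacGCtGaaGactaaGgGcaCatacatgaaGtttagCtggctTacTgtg
Tcrg-C4: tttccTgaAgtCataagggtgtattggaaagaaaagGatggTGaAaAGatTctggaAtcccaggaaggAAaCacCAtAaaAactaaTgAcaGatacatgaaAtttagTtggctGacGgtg
The genes also differ in the short exons that follow, which encode the connecting peptide between the constant domain and the membrane. This stretch was 45 bases in *Tcrg-C1*, 30 in *Tcrg-C2*, and 54 and 45 in the 2 connecting exons of *Tcrg-C4*, whose sequences carry no capitals because they were not aligned.
Tcrg-C1 exon 2: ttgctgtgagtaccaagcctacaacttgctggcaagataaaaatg
Tcrg-C2 exon 2: ttgctacaacttgctggcaagataaaaatg
Tcrg-C4 exon 2: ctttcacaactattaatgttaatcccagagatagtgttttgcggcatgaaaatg
Tcrg-C4 exon 3: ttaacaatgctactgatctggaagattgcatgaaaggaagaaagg
The reads of *Tcrg-C2* and *Tcrg-C4* were whole numbers in every library. Those of *Tcrg-C1* had decimals in 1 library, where they were divided with *Tcrg-C3*, a further gamma constant gene with at most 7 reads.

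The alpha-beta constant genes were the most abundant of the 10 by mean TPM over the 4 libraries, although *Tcrg-C1* exceeded *Trac* in AAV-CTRL 1. *Trac*, the only alpha constant gene (ENSMUSG00000076928.5; chromosome 14, 54220521 to 54224206, plus strand), was at 22.1 and 36.2 TPM in AAV-CTRL 1 and 2, and at 46.8 and 42.6 TPM in AAV-mVEGF-C 1 and 2. Both AAV-mVEGF-C libraries lay above both controls, and the controls were farther apart than the AAV-mVEGF-C libraries. The group means were 29.1 ± 9.95 TPM (SD, n = 2 pools) and 44.7 ± 3.01 TPM. *Trbc1* (ENSMUSG00000076490.6; chromosome 6, 41538218 to 41539881, plus strand) was at 39.1 and 48.9 TPM in the controls and at 55.7 and 70.2 TPM after AAV-mVEGF-C. It too did not overlap between groups, with means of 44.0 ± 6.93 and 62.9 ± 10.2 TPM. *Trbc2*, downstream of it (ENSMUSG00000076498.2; 41546730 to 41548352, plus strand), went the other way in TPM, at 44.4 and 46.2 against 37.6 and 43.6 TPM, but overlapped in scaled CPM, at 31.7 and 31.9 against 29.9 and 34.6.

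**Figure D1:**
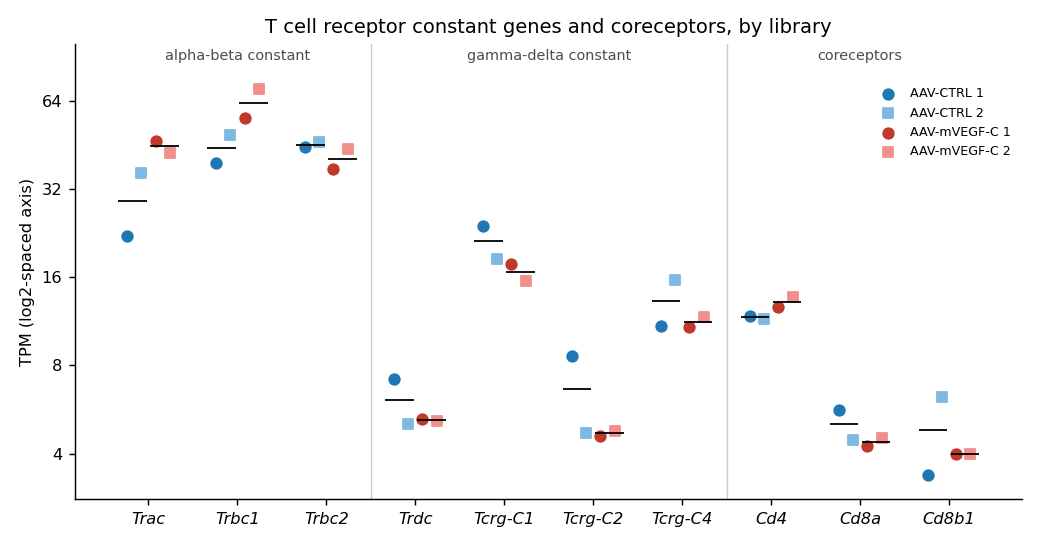
Level of each of the 10 genes in TPM (log2-spaced axis) in each library, with AAV-CTRL in blue, AAV-mVEGF-C in red, circles and squares for libraries 1 and 2 of a group, and black lines at group means. Trac and Trbc1 lie higher in both AAV-mVEGF-C libraries than in both controls, while Trdc, Tcrg-C2, Tcrg-C4, Cd8a and Cd8b1 overlap between groups.

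Because reads are divided between the beta genes, they were also summed. The pair had 83.5 and 95.1 TPM in the controls, and 93.3 and 114 TPM after AAV-mVEGF-C, so that AAV-mVEGF-C 1 fell between the controls. In reads per 1000000 the pair was at 58.7 and 69.1 against 78.4 and 90.0, where the groups did not overlap. With their reads added before the edgeR fit, the pair differed by 0.40 on the log2 scale, with a standard error of 0.17 and an adjusted p of 0.999. *Trbc1* made up 48.0% of the pair's reads in AAV-CTRL 1 (95% Wilson interval, 46.1 to 49.8) and 52.3% in AAV-CTRL 2 (50.3 to 54.4), compared with 60.9% (59.1 to 62.6) and 62.5% (60.7 to 64.2) in AAV-mVEGF-C 1 and 2. The use of *Trbc1* over *Trbc2* was thus higher in both AAV-mVEGF-C libraries, by 11.5 percentage points at the mean; an exact two-sided permutation test gave p = 0.33, the smallest that this test can give with 2 pools a group. The intervals cover counting error only, since PCR copies are not independent molecules and reads that fit both genes had been divided between them.

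The gamma-delta constant genes were less abundant and each had a lower mean TPM after AAV-mVEGF-C, with overlap between groups for all but *Tcrg-C1*. *Trdc*, the only delta constant gene (ENSMUSG00000104876.1; chromosome 14, 54142851 to 54148868, plus strand), was at 7.17 and 5.06 TPM in the controls, against 5.23 and 5.18 TPM after AAV-mVEGF-C. AAV-CTRL 1 stood above the other libraries, which were close to each other. *Tcrg-C1* (ENSMUSG00000076749.2; chromosome 13, 19214103 to 19217024, plus strand) was the leading gamma gene, at 23.9 and 18.5 TPM against 17.8 and 15.5 TPM. Its groups did not overlap in TPM but did in scaled CPM, at 23.7 and 17.0 against 19.1 and 16.3. *Tcrg-C2* (ENSMUSG00000076752.2; 19304649 to 19307551, minus strand) was again highest in AAV-CTRL 1, at 8.61 TPM, with 4.70 TPM in AAV-CTRL 2, compared with 4.61 and 4.77 TPM after AAV-mVEGF-C. *Tcrg-C4* (ENSMUSG00000076757.9; 19344558 to 19352756, plus strand) had a different order, with AAV-CTRL 2 highest at 15.6 TPM, AAV-CTRL 1 at 10.9, and AAV-mVEGF-C at 10.8 and 11.7. *Tcrg-C1* held 47.6 to 55.1% of the TPM of the 3 gamma genes, *Tcrg-C4* 25.0 to 40.3%, and *Tcrg-C2* 12.1 to 19.8%, and for each the range of the AAV-mVEGF-C libraries lay inside that of the controls.

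Set against each other within each library, alpha-beta constant genes outweighed gamma-delta constant genes by more after AAV-mVEGF-C. The gamma-delta genes held 32.4% and 25.1% of the TPM of the 7 constant genes in AAV-CTRL 1 and 2, compared with 21.5% and 19.2% in AAV-mVEGF-C 1 and 2. The groups did not overlap, at means of 28.7% ± 5.17 (SD, n = 2) and 20.4% ± 1.64, but AAV-CTRL 2 was nearer to the AAV-mVEGF-C libraries than to AAV-CTRL 1. The difference, AAV-mVEGF-C minus AAV-CTRL, was −8.37 percentage points (exact two-sided permutation test, p = 0.33; 0.4 after adjustment over 6 balance measures). It was −4.71 points without AAV-CTRL 1 and −12.0 points without AAV-CTRL 2. With *Trdc* as the only gamma-delta gene, which holds a smaller share to begin with, the difference was −1.63 points. For *Trdc* against *Trac* alone it was −7.94 points.

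The parts of this balance were not alike in strength. The summed alpha-beta genes were at 106 and 131 TPM in the controls, against 140 and 156 TPM after AAV-mVEGF-C, 1.26-fold higher at the mean of the logs. This log2 difference of 0.33 was 0.17 without AAV-CTRL 1. The summed gamma-delta genes were at 50.6 and 43.9 TPM in the controls, against 38.4 and 37.1 TPM after AAV-mVEGF-C, 0.801-fold. In scaled CPM the alpha-beta sum did not overlap either, at 73.7 and 87.0 against 108 and 120, whereas the gamma-delta sum did, at 81.2 and 60.2 against 65.1 and 62.5. The lower mean of the gamma-delta sum in scaled CPM rested on AAV-CTRL 1, since AAV-CTRL 2 was below both AAV-mVEGF-C libraries. As a share of the reads of the 7 genes, gamma-delta genes held 52.4% (95% Wilson interval, 51.2 to 53.6) and 40.9% (39.5 to 42.3) in AAV-CTRL, compared with 37.5% (36.4 to 38.7) and 34.1% (32.9 to 35.4) in AAV-mVEGF-C. The share of reads is larger than that of TPM, in which gene length is taken out. The annotated *Trdc* transcript has 3865 bases, of which the last exon makes up 3403, and 237 reads of *Trdc* equaled 1 TPM in AAV-CTRL 1, against 25.9 reads of *Trac*. RefSeq's model of *Trdc* on the same build ends at 54146108, short of GENCODE's, so the level of *Trdc* relative to other genes depends on the annotation.

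The single-copy genes of each receptor type gave the same direction. *Trac* exceeded *Trdc* in TPM by 3.08-fold and 7.15-fold in AAV-CTRL 1 and 2, and by 8.95-fold and 8.22-fold in AAV-mVEGF-C 1 and 2. The mean log2 ratio was 2.23 ± 0.86 (SD, n = 2) in AAV-CTRL and 3.10 ± 0.087 in AAV-mVEGF-C, a difference of 0.87 (exact two-sided permutation test, p = 0.33). AAV-CTRL 1 stood apart from the other libraries, and the difference was 0.26 without it and 1.48 without AAV-CTRL 2.

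**Figure D2:**
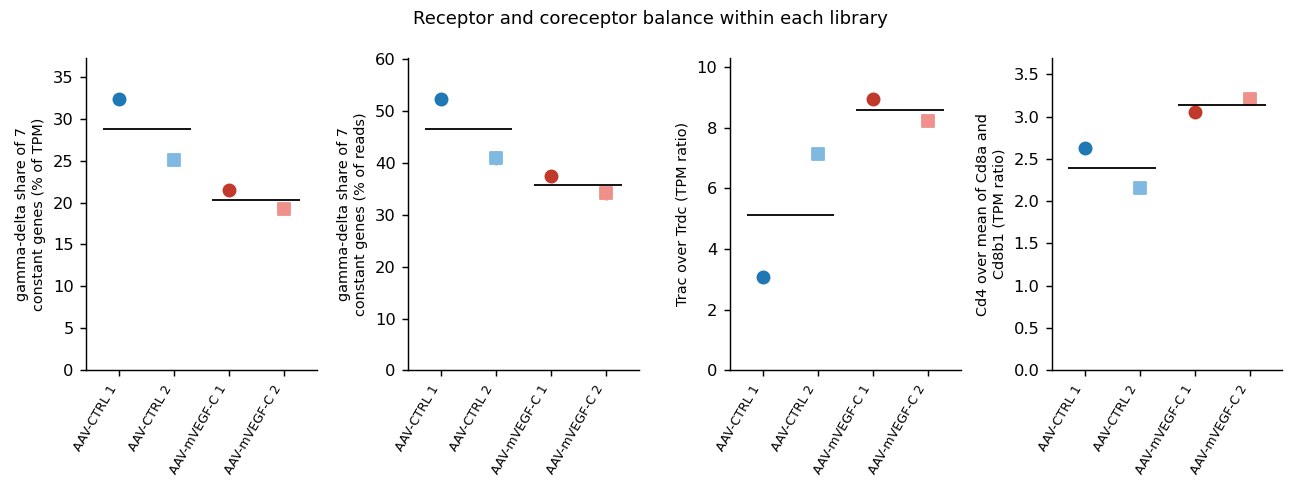
Balance within each library, with AAV-CTRL in blue, AAV-mVEGF-C in red, and black lines at group means: from left to right, the percent of TPM and the percent of reads of the 7 constant genes held by gamma-delta genes, the TPM ratio of Trac to Trdc, and the TPM ratio of Cd4 to the mean of Cd8a and Cd8b1. Vertical lines at the read shares are 95% Wilson intervals, mostly hidden by the points, and in each panel the groups do not overlap.

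Genes that were not used in this balance were then examined. Variable genes of the delta and gamma loci held 55.3% (95% Wilson interval, 53.3 to 57.3) and 50.7% (48.1 to 53.3) of variable gene reads in AAV-CTRL 1 and 2, compared with 43.2% (41.3 to 45.1) and 47.7% (45.3 to 50.1) in AAV-mVEGF-C 1 and 2, with 1385 to 2522 such reads per library. The 10 alpha variable genes that delta chains can also use, with 24 to 95.03 reads per library, were left out. The share was lower in both AAV-mVEGF-C libraries, with a difference of −7.56 percentage points at the mean (exact two-sided permutation test, p = 0.33). The intervals of AAV-CTRL 2 and AAV-mVEGF-C 2 overlapped, but they cover counting error only and do not compare the groups. The loci did not go the same way. Delta variable genes held 47.9% and 34.01% of variable gene reads in AAV-CTRL 1 and 2, compared with 27.4% and 31.5% in AAV-mVEGF-C 1 and 2, and nearly all of these reads were from *Trdv4*. Gamma variable genes held 7.37% and 16.7% in the controls and 15.8% and 16.2% after AAV-mVEGF-C, which overlapped. In scaled CPM, gamma variable genes were higher in both AAV-mVEGF-C libraries, at 3.89 and 6.72 against 10.2 and 8.55, and delta variable genes overlapped, at 25.3 and 13.7 against 17.7 and 16.6. Reads of *Trgv6* numbered 87 and 82 in AAV-CTRL, against 192 and 130 after AAV-mVEGF-C. Alpha and beta variable genes were at 23.6 and 19.9 against 36.7 and 27.6 scaled CPM, higher in both AAV-mVEGF-C libraries.

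Relative to the CD3 chains, which every T cell receptor needs to reach the surface, alpha-beta genes did not separate the groups and gamma-delta genes did. The alpha-beta sum was 1.24 and 1.52 times the summed TPM of *Cd3d*, *Cd3e*, and *Cd3g* in AAV-CTRL, and 1.39 and 1.59 times in AAV-mVEGF-C. The gamma-delta sum was 0.595 and 0.507 times that of the CD3 genes in AAV-CTRL, and 0.380 and 0.377 times in AAV-mVEGF-C, a mean ratio of 0.686 between groups (exact two-sided permutation test, p = 0.33). On this scale the AAV-mVEGF-C libraries were close to each other and below both controls.

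**Figure D3:**
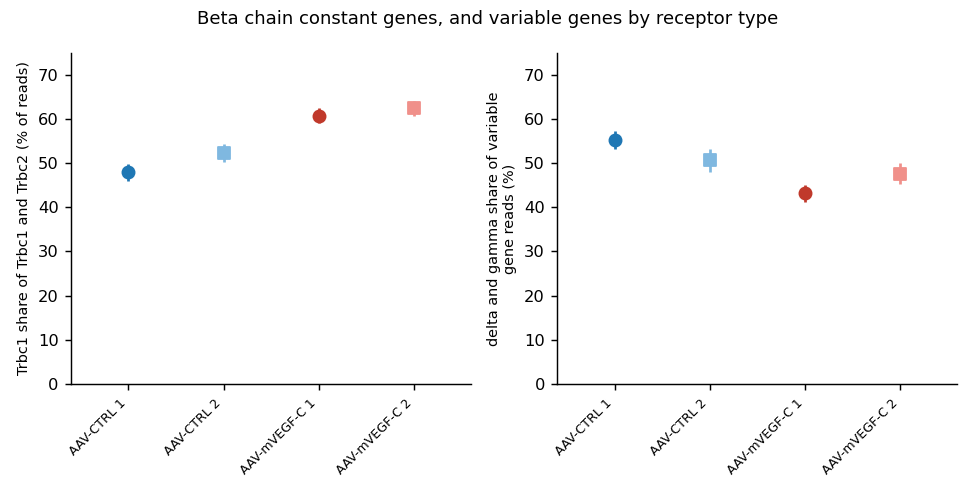
Left, percent of the reads of Trbc1 and Trbc2 that were assigned to Trbc1. Right, percent of variable gene reads that fell in delta and gamma variable genes. Points are libraries, AAV-CTRL in blue and AAV-mVEGF-C in red, and vertical lines are 95% Wilson intervals. The Trbc1 share is 48.0 and 52.3% in the controls and 60.9 and 62.5% after AAV-mVEGF-C.

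Among the coreceptors, *Cd4* (ENSMUSG00000023274.14; chromosome 6, 124864692 to 124888221, minus strand) was at 11.8 and 11.5 TPM in the controls, against 12.6 and 13.7 TPM after AAV-mVEGF-C. Both AAV-mVEGF-C libraries were above both controls, by little, with means of 11.7 ± 0.197 and 13.2 ± 0.742 TPM (SD, n = 2). *Cd8a*, the alpha chain of CD8 (ENSMUSG00000053977.13; chromosome 6, 71373427 to 71379173, plus strand), was at 5.62 and 4.46 TPM against 4.26 and 4.53 TPM, and the groups overlapped. *Cd8b1*, the beta chain (ENSMUSG00000053044.8; 71322788 to 71337494, plus strand), was at 3.38 and 6.24 TPM in the controls and 3.995 and 3.996 TPM after AAV-mVEGF-C, so that the controls lay on either side. The ratio of *Cd8a* to *Cd8b1* was 1.66 and 0.714 in the controls, against 1.07 and 1.13 after AAV-mVEGF-C, and the mean log2 ratio differed by 0.012 (exact two-sided permutation test, p = 1).

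*Cd4* outweighed CD8 in every library. Its TPM was 2.62 and 2.15 times the mean of *Cd8a* and *Cd8b1* in AAV-CTRL 1 and 2, and 3.06 and 3.21 times in AAV-mVEGF-C 1 and 2. The groups did not overlap, and the mean log2 ratio was 1.25 ± 0.20 (SD, n = 2) in AAV-CTRL and 1.65 ± 0.049 in AAV-mVEGF-C, a difference of 0.40 (exact two-sided permutation test, p = 0.33; 0.4 after adjustment over 6 balance measures). The difference was 0.26 without AAV-CTRL 2 and 0.54 without AAV-CTRL 1. The choice of CD8 chain mattered for the separation. Against *Cd8a* alone, *Cd4* was 2.10 and 2.59 times higher in the controls and 2.96 and 3.02 times higher after AAV-mVEGF-C. Against *Cd8b1* alone, the ratios were 3.49 and 1.85 in the controls and 3.16 and 3.42 after AAV-mVEGF-C, which overlapped. Relative to the CD3 genes, *Cd4* was at 0.139 and 0.133 in the controls, against 0.125 and 0.139 after AAV-mVEGF-C, and the mean of the CD8 genes was at 0.0530 and 0.0618 against 0.0408 and 0.0433.

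Ordered by mean TPM over the 4 libraries, the genes were *Trbc1* (53.5), *Trbc2* (43.0), *Trac* (36.9), *Tcrg-C1* (18.9), *Cd4* (12.4), *Tcrg-C4* (12.2), *Tcrg-C2* (5.67), *Trdc* (5.66), *Cd8a* (4.72), and *Cd8b1* (4.40). The ranges over libraries overlapped between neighbors in this order except between *Tcrg-C1* and *Cd4* and between *Tcrg-C4* and *Tcrg-C2*. Dural leukocytes thus held more message of each beta gene than of any gamma-delta constant gene in every library.

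None of the 10 genes passed edgeR's quasi-likelihood test at a Benjamini-Hochberg adjusted p of 0.05, fitted on all 19806 genes that passed the filter, of which 0% were called. DESeq2 and limma-voom also called 0 of the 10, against 0.189% and 0% of all genes they tested. At an unadjusted p under 0.05, edgeR had 2 of the 10, against 2.64% of all tested genes. These were *Trac*, 0.88 higher on the log2 scale with a standard error of 0.26, and *Trbc1*, 0.70 higher with a standard error of 0.20, and the adjusted p from edgeR was 0.999 for both. *Cd4* was at 0.28 (standard error 0.16) and *Trbc2* at 0.020 (standard error 0.17). The gamma-delta genes were all slightly below 0, from −0.36 for *Tcrg-C2* (standard error 0.41) to −0.059 for *Tcrg-C4* (standard error 0.25), and *Cd8a* and *Cd8b1* were at −0.10 (standard errors 0.21 and 0.34). Each of these 8 values except that of *Cd4* was smaller than its standard error.

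In scaled CPM, 3 genes (*Trac*, *Trbc1*, *Cd4*) were higher in both AAV-mVEGF-C libraries than in both controls, against 16.8% of all tested genes. None was lower in both, against 15.2% of all tested genes, and 7 overlapped. The values depended on the control libraries. Without AAV-CTRL 2, *Trac* (log2 fold change 1.24, adjusted p = 0.00289 from edgeR) and *Trbc1* (0.84, adjusted p = 0.0186) passed the test, but that fit called 2058 of 22401 genes, or 9.19%, with a single control whose spread was borrowed from the other group. Without AAV-CTRL 1, *Trac* was at 0.57 and *Trbc1* at 0.55, and neither passed. In that fit *Trdc* (0.23), *Tcrg-C1* (0.044), *Tcrg-C2* (0.20), and *Cd8a* (0.041) turned above 0, so the negative values of these genes rested on AAV-CTRL 1.

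**Figure D4:**
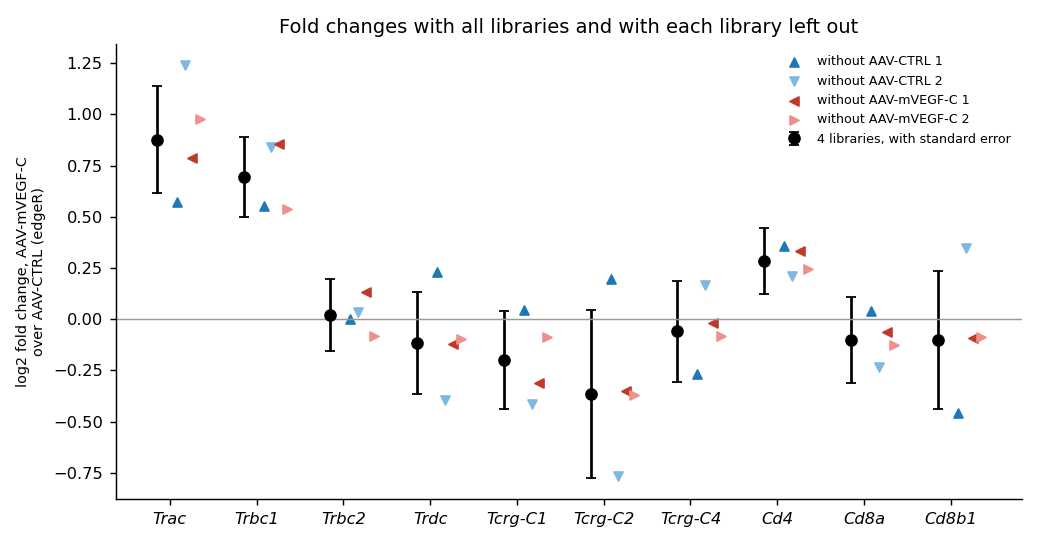
Log2 fold change of each gene, AAV-mVEGF-C over AAV-CTRL, from edgeR. Black points with bars are the fit to 4 libraries with its standard error, and colored triangles are fits without the named library. Trac, Trbc1 and Cd4 stay above 0 in all 5 fits, and the other genes lie on both sides of 0.

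Genes that act with the receptor were described from a list of 20 genes for its CD3 complex and first signaling steps. Of these, 19 had a log2 fold change above 0, with a median of 0.26, against a median of 0.0034 and 50.4% above 0 over all tested genes, and 0 passed the adjusted test in edgeR. Those above both controls in scaled CPM numbered 9 of 20, against 16.8% of all tested genes. The gene that went the other way, named after its values were seen, was *Cd2*, an adhesion receptor of T and NK cells. It was at 30.8 and 30.2 TPM in the controls, against 17.7 and 19.6 TPM after AAV-mVEGF-C, a log2 difference of −0.56 that did not pass either (adjusted p = 0.999 in edgeR). *Cd247*, the zeta chain of the complex, was at 11.9 and 11.8 TPM in the controls, against 16.1 and 15.5 TPM after AAV-mVEGF-C, and *Cd3g* was at 41.5 and 46.1 against 52.2 and 49.8 TPM. *Cd3e* was at 33.5 and 31.7 against 39.8 and 39.6 TPM, and *Cd3d* at 9.96 and 8.71 against 9.05 and 9.05 TPM. *Lcp2*, an adaptor also used by other leukocytes, was at 46.3 to 51.9 TPM in all libraries.

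Lists of lineage genes were read beside the coreceptors. All 8 CD4 lineage genes had a log2 fold change above 0, with a median of 0.27 (0.31 to 0.46 with a library left out) and 0 passing. *Zbtb7b*, which directs T cells to the CD4 fate, was at 8.86 and 14.1 TPM in the controls, against 10.5 and 10.5 TPM after AAV-mVEGF-C, and *Gata3*, which is also strong in type 2 innate lymphocytes, at 22.5 and 37.8 against 29.2 and 36.3 TPM. The regulatory receptor gene *Il2ra* was at 22.8 to 25.2 TPM in all libraries. Of the 8 genes, 3 lay above both controls in scaled CPM, against 16.8% of all tested genes, and they are named after their values were seen. *Foxp3*, the defining factor of regulatory T cells, was at 1.18 and 1.21 against 1.88 and 2.15 TPM, and *Ctla4*, an inhibitory receptor, at 9.40 and 5.43 against 16.5 and 10.7 TPM. *Icos*, a costimulatory receptor, was at 13.8 and 23.05 against 24.7 and 24.6 TPM. Of the 11 CD8 lineage and cytotoxic genes, 4 were above 0 and 7 below, with a median of −0.065 and 0 passing. With a library left out that median ran from −0.18 to 0.059, so it had no stable direction. In scaled CPM 2 lay above both controls (16.8% of all tested genes did) and 2 below both (15.2% did). Above both were *Runx3*, whose values follow, and *Crtam*, at 0.392 and 0.828 against 1.33 and 0.774 TPM, which overlapped in that unit. Below both were the granule genes *Gzmb*, at 9.62 and 11.9 against 5.83 and 8.61 TPM, and *Prf1*, at 3.93 and 5.41 against 2.98 and 3.76 TPM. *Crtam*, *Gzmb*, and *Prf1* were also named after their values were seen. *Runx3*, which silences *Cd4* in CD8 T cells, was at 18.3 and 31.8 against 32.7 and 35.3 TPM, and the chemokine gene *Ccl5* at 96.6 and 127 against 86.0 and 108 TPM.

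Markers of other cells that can carry these transcripts also differed between libraries, and their part in the results was not tested. For NK cells, which can transcribe *Trdc* and gamma constant genes, 6 of 8 markers were below both controls in scaled CPM (15.2% of all tested genes were), and their summed level was 48.5 and 54.5 TPM in the controls, against 28.0 and 39.8 TPM after AAV-mVEGF-C. *Gzma* was at 23.8 and 18.9 against 9.25 and 15.7 TPM, and *Ncr1*, a receptor found on NK cells and some innate lymphocytes, at 7.86 and 11.7 against 5.87 and 6.61 TPM. Of the 8, 6 had a log2 fold change below 0 and 2 above, and 0 passed the adjusted test in edgeR. For the dendritic cells that express *Cd8a*, all 7 markers had a log2 fold change above 0 (median 0.28, and 0.096 to 0.40 with a library left out). In scaled CPM 2 lay above both controls (16.8% of all tested genes did), and the sum was 114 and 139 against 116 and 119 TPM. *Wdfy4*, at 77.03 to 94.4 TPM, made up most of it, and *Clec9a* was at 7.11 and 15.1 against 13.3 and 11.9 TPM.

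For cells that can express *Cd4*, the sum of 8 markers of plasmacytoid dendritic cells was 78.7 and 192 TPM in the controls, against 96.1 and 105 TPM after AAV-mVEGF-C, led by *Ly6d* and *Tcf4*. The sum of 10 macrophage markers was 760 and 1234 against 589 and 918 TPM, led by *C1qb* and *C1qa*. In both lists AAV-CTRL 2 was the highest library. *Cd4* was at 11.5 TPM there and at 11.8 TPM in AAV-CTRL 1, and the part of these cells in its level was not tested. Signs of other material were also uneven. The 6 B cell markers, led by *Cd79a* and *Cd79b*, summed to 94.6 and 251 TPM in the controls, against 86.3 and 98.8 TPM after AAV-mVEGF-C, and 8 neutrophil markers, led by *S100a9* and *S100a8*, to 32051 and 15271 against 17727 and 20559 TPM. Fibroblast and endothelial genes, led by *Col1a2* and *Col1a1* and outside the CD45 gate, summed to 107 and 162 against 56.4 and 77.7 TPM, with 8 of 10 below both controls in scaled CPM, against 15.2% of all tested genes. None of the markers in these lists was at 0 in any library.

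The genes whose pattern over the 4 libraries lay nearest to that of *Trac* were *Tnfsf8*, *Snord15b*, and *Gm26244*, at a root mean square distance of 0.046 to 0.077 in centered log2 CPM among 9869 genes. Nearest to *Trdc* were *Palm*, *Rab24*, and *Optn*, at 0.016 to 0.021. With 4 libraries many genes share a pattern by number alone, and these names are a description.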

How the data were processed

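RNA of the sorted cells was converted to libraries with Takara's SMARTer pico kit, which keeps strand. The authors deposited estimated counts per gene, which need not be whole (8.18% had decimals), and TPM for the same genes, scaled to 1000000 per library. Per the labels, processing used FastQC, Trimmomatic, DRAGEN, and Picard with build mm10. Versions and the annotation are not given in the sources used here. Coordinates and transcripts are GENCODE M21 on GRCm38, which holds 54349 of the 55401 identifiers with the same version.

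Estimated counts were rounded and tested with the quasi-likelihood test of edgeR 4.0.16 (R 4.3.3; TMM, filterByExpr defaults, no covariate, Benjamini-Hochberg over 19806 genes). Standard errors are the log2 fold change over the square root of F. TPM sums and ratios were compared with exact permutation tests (smallest p, 0.33). By the series' design the experiment was done 2 times with new pools of mice, so p-values measure the spread between these pools. Alternatives were DESeq2 1.42.0, limma-voom 3.58.1, RLE, other filters, TPM in limma (pseudocounts 1 and 0.1), a replicate block, and leaving out each library. A crossed block and adding the beta genes together were chosen after seeing the data. The fits were tested on simulated data.

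The 10 genes and 12 lists (112 genes) were chosen with earlier results of these data known. Genes named from a list are its 2 with the highest mean TPM, plus the CD3 chains and lineage regulators, of which 1 is not reported here. *Cd2*, *Foxp3*, *Ctla4*, *Icos*, *Crtam*, *Gzmb*, *Prf1*, *Rag2*, *Il17f*, *Ptcra*, *Trdv4*, and *Trgv6* fall outside this rule, and their values were known when they were picked. Those nearest to *Trac* and *Trdc* come from tested genes with a mean log2 CPM of at least 3. The 4 libraries differed by more than sampling noise within each group.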

Additional observations from a re-analysis of the deposited data

How the results depend on the processing

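The gamma-delta share, the *Trac* to *Trdc* ratio, the *Cd4* to CD8 ratio, and both sums kept their direction in every alternative tried for each (6 to 8 alternatives). Most of these alternatives could not turn it. In TPM the groups did not overlap for these measures, so leaving out a library keeps the sign. The replicate block equals the main value by construction. None of these measures could pass the exact permutation test, which cannot go below p = 0.33 here. With each library left out, the share difference ran from −12.0 to −4.71 points. The *Cd8a* to *Cd8b1* log2 ratio, 0.012, had no stable direction. It was −0.044 in scaled CPM and ran from −0.60 to 0.62 with a library left out. The number of the 10 genes past the adjusted test was 0 in every alternative with 4 libraries and ran from 0 to 2 with a library left out. Of the 112 listed genes, edgeR called 0 (0% of all genes tested) and DESeq2 1, *Il17f* (0.189% of all genes tested), and the cause was not tested.

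*Trac*, *Trbc1*, and *Cd4* kept log2 fold changes above 0 throughout. *Trbc2* turned to −0.16 in TPM with either pseudocount, where the median of all genes was −0.078 and −0.11. With a library left out, the log2 fold change ran from −0.084 to 0.13 for *Trbc2*, −0.40 to 0.23 for *Trdc*, −0.41 to 0.044 for *Tcrg-C1*, −0.76 to 0.20 for *Tcrg-C2*, −0.27 to 0.17 for *Tcrg-C4*, −0.23 to 0.041 for *Cd8a*, and −0.46 to 0.35 for *Cd8b1*. The smallest adjusted p of *Trac* over the alternatives with 4 libraries was 0.0781, without a filter, and the largest was 0.999.

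Libraries of the same experiment number did not deviate together (correlation of deviations across genes, −0.134 on edgeR's log2 CPM), so the numbers were not taken as pairs. With the number as a replicate block, 11 genes in all and 0 of the 10 passed. The deposited column names number the libraries differently from the titles. Crossing the experiment numbers pairs the control and AAV-mVEGF-C libraries whose column names share a number, and pairs the remaining libraries. For this crossed pairing the correlation has the opposite sign by construction. With it as the block, 54 genes in all and 0 of the 10 passed. Which libraries, if any, were handled together is not given. For the sums and ratios, the mean difference within pairs equals the difference of group means by construction (−8.37 points for the gamma-delta share), so the block could not move them.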

Other observations

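Among 12 genes of the gamma-delta T cell program, many of them shared with other innate lymphocytes, 11 had a log2 fold change above 0 after AAV-mVEGF-C. The median was 0.37, and ran from 0.23 to 0.56 with a library left out. In scaled CPM 5 lay above both controls (16.8% of all tested genes did), and 0 passed the adjusted test in edgeR, although the gamma-delta share of constant genes was lower. *Il7r* and *Il18r1*, the most abundant, were at 33.1 and 38.5 against 47.1 and 37.4 TPM and at 16.3 and 12.4 against 14.9 and 12.9 TPM. *Sox13*, a gamma-delta lineage factor, was at 3.33 and 2.69 against 2.53 and 3.28 TPM. The cytokine gene *Il17f*, named after its values were seen, was at 0.195 and 0.138 TPM in AAV-CTRL and at 2.99 and 0.717 TPM in AAV-mVEGF-C. The difference was 3.55 on the log2 scale with a standard error of 0.91, and the adjusted p was 0.999 in edgeR and 0.0349 in DESeq2.

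Of 4 genes of lymphocyte precursors, *Ptcra*, also named after its values were seen, which encodes the chain that pairs with beta in immature T cells of the thymus, was listed at 0 TPM in 3 libraries and at 0.034 TPM in AAV-mVEGF-C 2. *Dntt* and *Rag1*, which serve the assembly of both T and B cell receptors, were lower in both AAV-mVEGF-C libraries, as was *Rag2*, the partner of *Rag1*, against 15.2% of all tested genes. *Dntt* was at 4.29 and 6.35 against 2.77 and 3.84 TPM, and *Rag1* at 1.59 and 5.24 against 0.314 and 0.904 TPM, a log2 difference of −2.33 with a standard error of 0.67, for which edgeR gave an adjusted p of 0.999. *Rag2* was at 0.863 and 0.720 against 0.117 and 0.519 TPM. The list's 3 tested genes had a median of −1.63.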
